A study of Mus musculus with 2 samples.

Results

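The genes that encode the collagens and the core of the elastic fibre were examined for CTCF binding in newborn mouse lung. Members were the protein-coding genes of GENCODE M21 with a collagen chain symbol (44 genes, from Col1a1 to Col28a1) together with Eln, Fbn1, Fbn2, Fbln5, Lox, Loxl1, Mfap4 and Emilin1, which gave 52 genes of 21646 protein-coding genes on chromosomes 1 to 19 and X. They held or adjoined 228 of 64732 CTCF sites. The study is chromatin immunoprecipitation and sequencing (ChIP-seq) with a CTCF antibody on whole lung of B6NCrl mice at postnatal day 0, with 1 group, 2 replicates and no other condition, genotype or treatment. One biosample and one donor are labelled for both replicates, and their difference may therefore be technical. A site is a peak of the authors' optimal list, which they thresholded on reproducibility, and its position is the summit. Of the 228 sites, 223 matched a peak in both replicate lists, and 204 were also in the authors' stricter (conservative) list. A further 17 sites in the bodies of members stood in the conservative list alone and are not in the main counts. Signal is the deposited value of a peak in the list of the replicate named, with no unit, and is taken here as an enrichment value. In whole tissue, binding in fewer cells and weaker binding in each cell cannot be told apart.

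CTCF binds a directional DNA motif through its zinc fingers. It stops the cohesin complex as that complex extrudes DNA loops, and loops often form between motifs that point towards each other. Collagens are triple-helical proteins: the fibrillar chains give tissue its tensile strength, and type IV chains form the sheet of basement membranes. Elastin laid on fibrillin microfibrils gives lung its recoil. All of these are laid down in the developing lung. The type IV chain genes are known for lying head to head in pairs, each pair transcribed in opposite directions from a shared promoter region.

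A promoter site (summit within 1000 bp of the start of a protein-coding transcript) was found at 16 of 52 members (30.8%, 95% Wilson interval 19.9 to 44.3). The share over all protein-coding genes, 39.8%, lay inside that interval. Of these 16 genes, 6 held the 12-base CTCF core, taken here as the central stretch of the motif with at most 1 mismatch on either strand within 50 bp of the summit. Their sequences are shown because they join the protein's motif to a collagen or elastic fibre promoter. Each is read from the GRCm38 genome (mm10), 5′ to 3′ on the strand of the core. Capitals mark the core.
Col1a1 (no mismatch), chr11:94937156-94937207, minus strand: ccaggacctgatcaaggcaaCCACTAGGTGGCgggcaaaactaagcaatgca
Col27a1 (1 mismatch), chr4:63215279-63215330, plus strand: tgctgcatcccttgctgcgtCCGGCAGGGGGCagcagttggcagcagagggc
Col1a2 (1 mismatch), chr6:4506385-4506436, minus strand: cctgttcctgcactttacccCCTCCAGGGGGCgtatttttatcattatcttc
Emilin1 (1 mismatch), chr5:30913499-30913528, plus strand: acagggagaCCAGAAGAGGGCcagctggag
Col4a1 and Col4a2, shared (1 mismatch), chr8:11312584-11312613, minus strand: ccgggcgcgCCACCATGGGGCcccggctca
The Col1a1 core was the only one of the 5 without a mismatch. In the shared type IV sequence, bases 6 to 8 of the core are the annotated start codon of Col4a1, and the core lay 38 bp from the summit. Strong promoter sites of other members had no core: the best match carried 2 mismatches at Col23a1, Col6a2 and Col5a1, as shown next.
Col23a1 (2 mismatches), chr11:51289581-51289632, plus strand: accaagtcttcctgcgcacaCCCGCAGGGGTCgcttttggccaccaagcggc
Col6a2 (2 mismatches), chr10:76623428-76623457, plus strand: aaaactcgaCCGCTGGGGGGCgctgcggcc
Col5a1 (2 mismatches), chr2:27887313-27887364, minus strand: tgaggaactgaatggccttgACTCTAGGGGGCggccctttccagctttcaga

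Promoter sites of the members spanned a wide range of signal, and the fibrillar chains included some of the highest. The site of Col27a1, a fibrillar collagen of cartilage, reached 227 in replicate 1 and 193 in replicate 2. At Col23a1, a membrane-spanning collagen, the signal was 208 in replicate 1 and 178 in replicate 2. Both exceeded the signal at 95% of all sites. Col1a1, the major chain of type I collagen, had 166 in replicate 1 and 179 in replicate 2, at 940 bp into the gene in intron 1. Its partner chain Col1a2 had 60.6 in replicate 1 and 40.7 in replicate 2, in intron 1 and 1606 bp from the outermost 5′ end. Type I collagen is assembled from both chains. Each of the genes carried a core-bearing site downstream of its start, higher at Col1a1 in both replicates.

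Col6a2, a chain of the beaded-filament type VI collagen, had 152 in both replicates at its first exon. Col5a1, a type V chain that sets fibril diameter, had 3 promoter sites. The highest, in intron 1, gave 107 in replicate 1 and 101.2 in replicate 2. A second gave 23.0 in replicate 1 and 23.8 in replicate 2, and the one upstream of the start matched a peak in replicate 2 alone, with 28.2. These 6 genes, Col1a2 included, made up all members whose promoter site stayed among the highest 50% of sites by signal.

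The remaining promoter sites were weaker. The site shared by Col4a1 and Col4a2 had 35.7 in replicate 1 and 25.4 in replicate 2. Col14a1, which binds the surface of collagen fibrils, had 31.8 in replicate 1 and 17.0 in replicate 2. At Col15a1, a basement membrane collagen, the values were 20.9 in replicate 1 and 23.5 in replicate 2. All 3 were below 50 in both replicates. Emilin1, an elastic fibre glycoprotein, gave 21.9 in replicate 1 and 21.5 in replicate 2, 95 bp from its start. Col25a1, a membrane collagen, gave 16.5 in replicate 1 and 28.7 in replicate 2, near its protein-coding start and 49056 bp inside the outermost 5′ end of the annotated gene. Col13a1, another membrane collagen, gave 26.0 and 16.3 in replicates 1 and 2, and Fbn1, which encodes the main microfibril protein, 24.6 and 16.7. Col24a1, a fibrillar chain, gave 9.78 and 9.74 in replicates 1 and 2, and Fbn2, the fibrillin prominent in development, 13.2 and 5.09. Fbn2 was the only promoter call that the authors' stricter list did not hold.

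**Figure D1:**
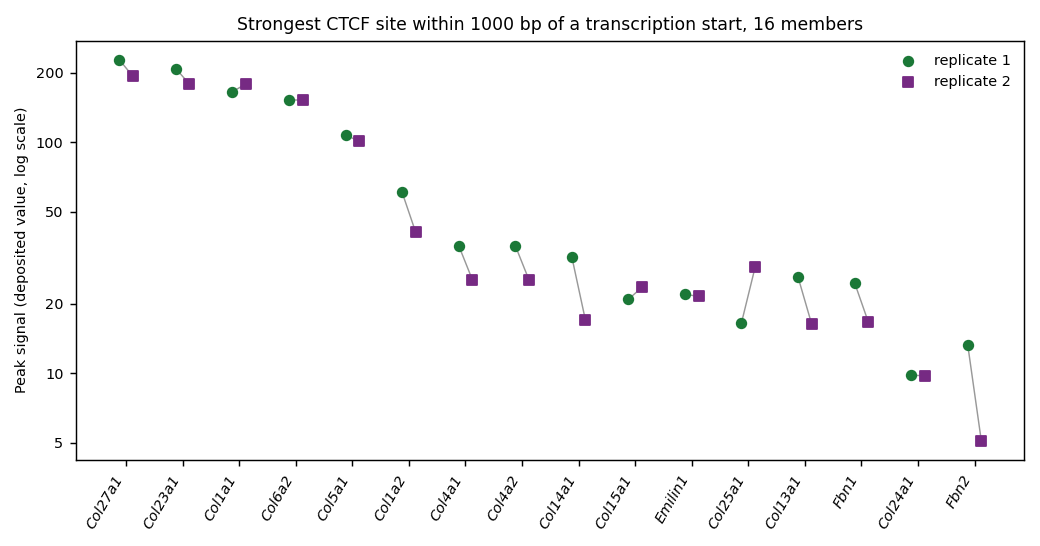
Signal of the highest CTCF site within 1000 bp of a transcription start for the 16 members that have one, in replicate 1 (circles) and replicate 2 (squares). The log axis shows the deposited value, and grey lines join the replicates. Col27a1, Col23a1, Col1a1, Col6a2 and Col5a1 stood above 100 in both replicates, and Fbn2 was lowest in replicate 2 with 5.09.

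Among the families, promoter sites were found at 5 of 11 fibrillar chains, 2 of 6 type IV chains, 1 of 6 type VI chains, 1 of 9 FACIT chains (which decorate fibrils) and 3 of 4 membrane collagens. They were also found at 1 of 2 multiplexins (Col15a1, not Col18a1) and at 3 of 8 elastic fibre genes. None was found at the 3 short-chain collagens (Col8a1, Col8a2 and Col10a1), at Col7a1 of the anchoring fibril, or at Col26a1 and Col28a1. Sites of Col24a1 at 968 bp, Col13a1 at 954 bp and Col1a1 at 940 bp lay just inside the 1000 bp limit. Eln at 1118 bp, Loxl1 at 1409 bp and Col12a1 at 1423 bp lay just outside it. For Col1a2, Col24a1, Col25a1, Col27a1 and Fbn1, 5 of the 16, the promoter sites were at a start inside the annotated gene and not within 1000 bp of its outermost 5′ end. Those of Col27a1 lay 1304 and 2140 bp from that end, where a weaker site that was not counted at the promoter had 21.7 in replicate 1 and 17.4 in replicate 2.

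The authors' pooled list, which is not thresholded on reproducibility, was also read near the starts of the 36 members without a promoter site. It held a peak within 1000 bp of a start at 22 of them (61.1%, interval 44.9 to 75.2) and none at the other 14, against 50.1% of all genes without a promoter site. A peak in both replicate lists was found at 13 of them (36.1%, interval 22.5 to 52.4), against 38.6% of those genes. The highest by pooled signal was at Col8a2, a chain of the hexagonal network under the corneal endothelium, with 14.8 in replicate 1 and 9.09 in replicate 2. Others were higher in replicate 2, among them Col19a1, with 6.06 in replicate 1 and 15.0 in replicate 2. Eln, which encodes elastin, had 8.75 in replicate 1 and 14.2 in replicate 2. These values overlap those of the weakest listed promoter sites at Col24a1 and Fbn2.

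Base composition moved with the promoter calls, and its part in them was not tested. The median GC content within 500 bp of the outermost 5′ end was 59.99% at members with a promoter site and 55.3% at members without. Below 50% GC, 2 of 14 members (14.3%) had a promoter site, against 14.8% of all genes in that class. Between 50% and 60% GC it was 6 of 22 members (27.3%), against 44.1% of all genes. From 60% GC upwards it was 8 of 16 members (50%), against 61.7% of all genes. GC was read at the outermost 5′ end, while promoter sites were counted at any protein-coding start. The 2 members with a promoter site below 50% GC, Fbn1 and Col25a1, had it 2109 and 49056 bp from that end, outside the GC window. Core share at promoter sites was alike: 5 of 21 member sites (23.8%, interval 10.6 to 45.1) against 20.6% of the promoter sites of all genes.

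More members held a site inside the gene than at a promoter, but gene bodies cover far more sequence than the promoter windows. A gene-body site, between the outermost ends of the gene, was found in 48 of 52 members (92.3%, interval 81.8 to 97.0), against 56.5% of all protein-coding genes. Members are long, however, and long genes hold more sites. Under 25 kb, 5 of 8 members (62.5%) held a site, against 38.8% of all genes of that length; from 25 to 100 kb it was 15 of 16 (93.8%), against 78.3%; from 100 kb upwards it was 28 of 28, against 94.7%. Site density was 3.80 per 100 kb over all members and 3.54 per 100 kb over all genes. Within the length classes it was 9.36, 5.38 and 3.48 per 100 kb in members, against 6.48, 4.47 and 2.51 per 100 kb in all genes. For promoters the order was the other way round. From the shortest to the longest class, 2 of 8 (25%), 2 of 16 (12.5%) and 12 of 28 members (42.9%) had a promoter site. In all genes the shares were 32.7%, 48.2% and 56.1%. The classes hold few members, and no interval was computed for their shares. Set beside genes of 0.8 to 1.25 times their own length, 24 members held more sites than the median gene, 13 the same number and 15 fewer. The median number of gene-body sites per gene was closer than the densities. From the shortest to the longest class it was 1, 2 and 5.5 in members, against 0, 2 and 5 in all genes.

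**Figure D2:**
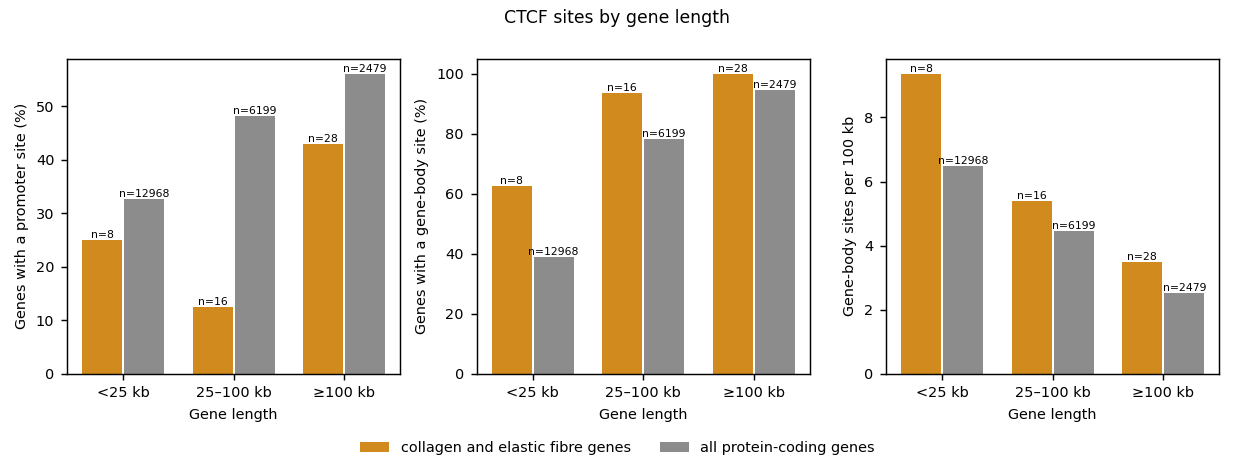
Share of genes with a promoter site (left), share with a gene-body site (middle) and gene-body sites per 100 kb (right) by gene length, for collagen and elastic fibre genes (orange) and all protein-coding genes (grey), with the number of genes above each bar. In each length class the orange bar is lower for promoters and higher for gene bodies and density. From 25 to 100 kb the promoter shares are 12.5% against 48.2%. The classes hold 8, 16 and 28 members, so that some differences rest on few genes.

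Col4a2, which encodes the alpha2 chain of type IV collagen, held the most sites, 17 in 136 kb (12.5 per 100 kb). Of 982 genes of like length, 12 (1.22%) held at least as many. Col18a1, a basement membrane collagen whose C-terminal fragment is endostatin, held 13 sites (11.4 per 100 kb), a number reached by 2.30% of genes of like length. Col5a1 held 13 (5.15% of genes of like length reached that) and Col23a1 13 (19.2%). Col13a1, Col26a1, Col27a1, Fbn1 and Fbn2 held 9 each. Among these genes, the totals of Col4a2 and Col18a1 were thus the ones least often reached by other genes of their length.

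High density was also seen in short genes. Col1a1 held 4 sites in 16.8 kb, and all 4 had the core. Their signals were 166, 186, 79.7 and 21.6 in replicate 1, from the 5′ end, and 179, 180, 69.4 and 12.8 in replicate 2. Of genes of like length, 4.46% held as many sites. Emilin1 held 2 sites in 7.88 kb, with the higher at 169 in replicate 1 and 134 in replicate 2. Col8a2 held 5 sites in 27.5 kb, with the highest at 193 in replicate 1 and 168 in replicate 2. At the other end, Col4a5 held 1 site in 214 kb, where 95.05% of genes of like length held at least 1, and Col6a5 held 1 in 105 kb. Lox, the enzyme that starts elastin and collagen cross-links, held 1 core-bearing site with 114 in replicate 1 and 120 in replicate 2.

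**Figure D3:**
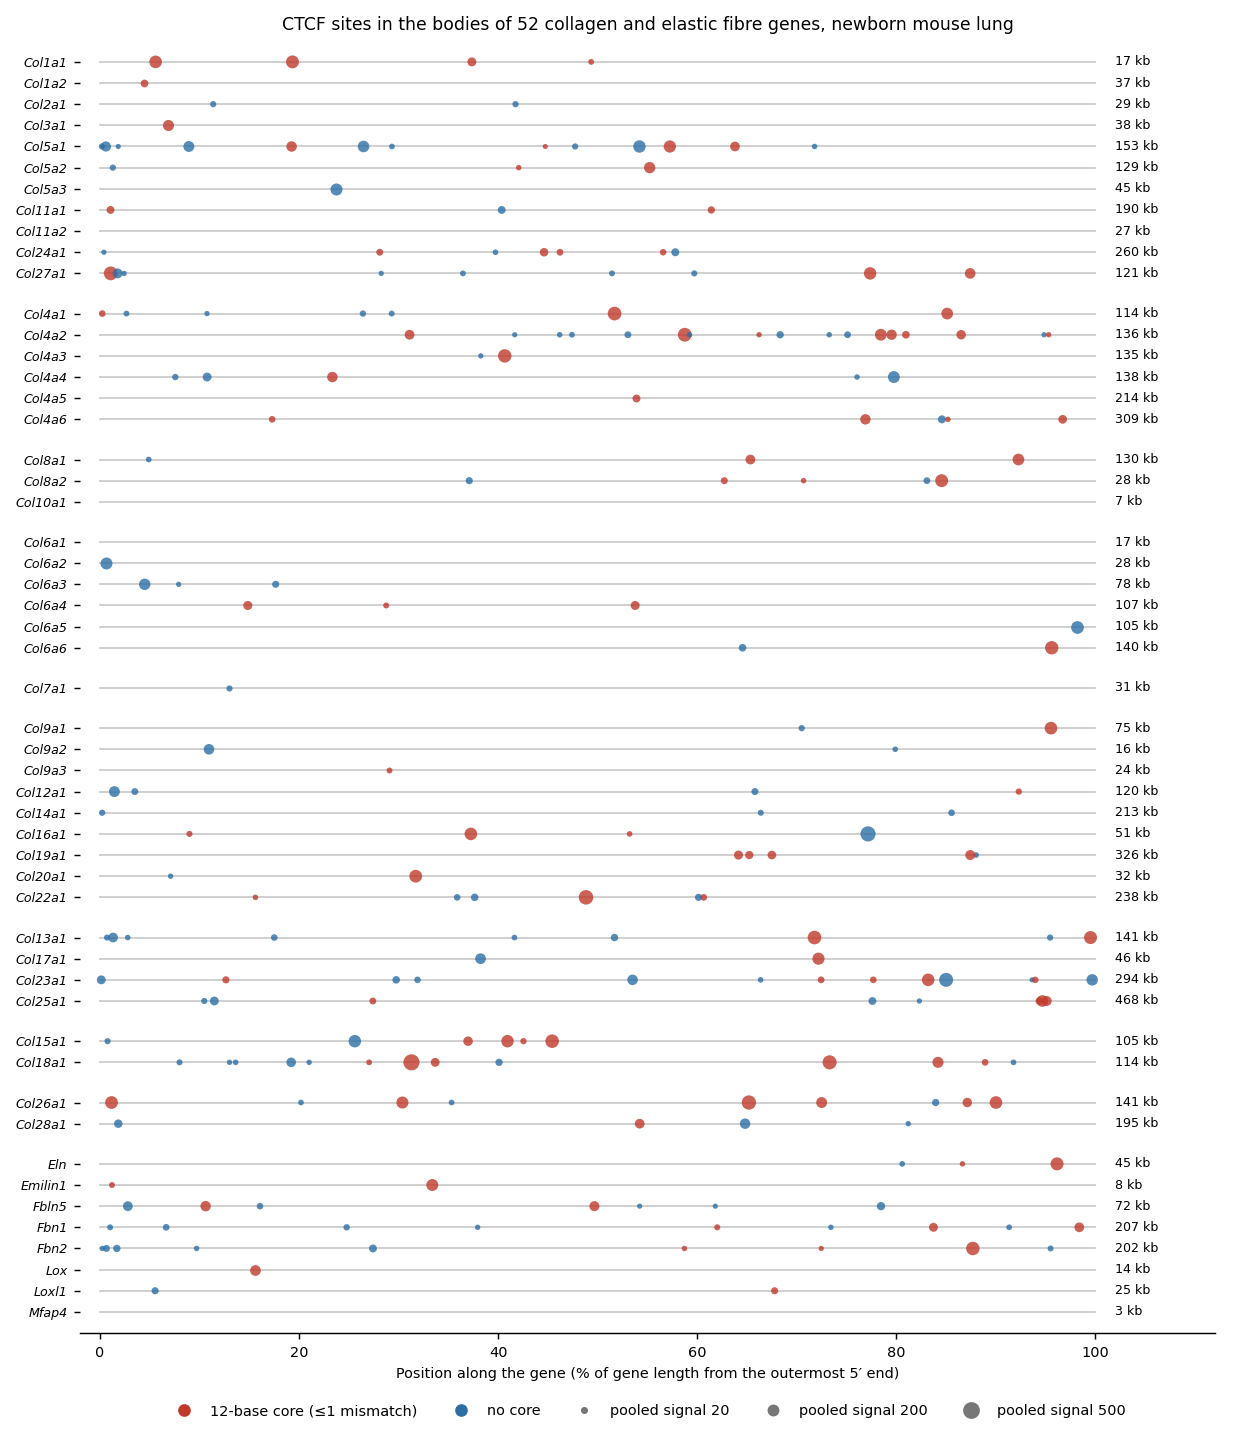
CTCF sites along the 52 members, grouped by family from fibrillar chains (top) to elastic fibre genes (bottom); the x axis is position in percent of gene length from the outermost 5′ end, point size is the pooled signal, red points hold the core and blue points do not. The 17 sites of Col4a2 lie away from its 5′ end, all 4 sites of Col1a1 are red, and Col10a1, Col6a1, Col11a2 and Mfap4 have none.

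No site was found at the promoter or in the body of Col10a1, Col6a1, Mfap4 and Col11a2. Col10a1 is the network collagen of hypertrophic cartilage, Col6a1 a type VI chain, Mfap4 a microfibril-associated protein and Col11a2 a fibrillar chain of cartilage. The nearest site to a start was 21654 bp away at Col10a1, 2410 bp at Col6a1, 4519 bp at Mfap4 and 5094 bp at Col11a2. These genes are short, and 66.9%, 41.1%, 74.5% and 31.7% of genes of like length held no site either.

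Gene-body sites with the core lay mostly in introns. The sequences below are those with the highest pooled signal in Col18a1, Col22a1, Col26a1 and Col4a2, followed by the highest in Eln, and they show how the core varied between members. Sites without the core were passed over, although some were stronger by pooled signal than the Col4a2 site. Such a site had 251 in replicate 1 and 266 in replicate 2 in Col16a1, and 209 in replicate 1 and 222 in replicate 2 in Col23a1.
Col18a1 (1 mismatch), chr10:77130715-77130766, plus strand: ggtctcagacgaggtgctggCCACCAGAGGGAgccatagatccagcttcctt
Col22a1 (1 mismatch), chr15:71917775-71917826, plus strand: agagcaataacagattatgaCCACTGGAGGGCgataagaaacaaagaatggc
Col26a1 (no mismatch), chr5:136790973-136791024, plus strand: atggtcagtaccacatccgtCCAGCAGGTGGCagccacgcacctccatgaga
Col4a2 (1 mismatch), chr8:11392957-11393008, minus strand: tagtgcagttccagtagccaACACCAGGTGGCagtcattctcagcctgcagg
Eln (no mismatch), chr5:134704296-134704347, minus strand: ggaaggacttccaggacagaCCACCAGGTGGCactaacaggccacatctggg
The Col18a1 site was the highest of all member sites, with 292 in replicate 1 and 297 in replicate 2. Col22a1, a FACIT chain of tissue junctions, had 227 in replicate 1 and 245 in replicate 2. Col26a1 had 245 in replicate 1 and 211 in replicate 2. All 3 were in the highest-ranked 10% of sites, as were the Col4a2 site, with 217 in replicate 1 and 206 in replicate 2, and the Eln site in intron 36, with 189 in replicate 1 and 177 in replicate 2.

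Cores without a mismatch were found at 31 of 228 member sites (13.6%) and took 13 of the 16 possible words. The most frequent word stood at 6 of the 31 (19.4%, against 14.7% of such cores at all sites), in Col4a2, Col5a1, Col11a1, Col13a1, Col22a1 and Col23a1. Another stood at 5 (16.1%, against 7.45%), in Col5a1, Col13a1, Col15a1, Col24a1 and Col25a1. The next, also at 5, is that of the Col1a1 promoter sequence above and of the following pair.
Col3a1 (no mismatch), chr1:45314114-45314165, minus strand: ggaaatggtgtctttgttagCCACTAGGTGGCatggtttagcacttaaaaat
Col5a2 (no mismatch), chr1:45432055-45432106, plus strand: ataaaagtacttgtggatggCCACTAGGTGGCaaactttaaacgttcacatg
Col3a1, the type III chain of extensible tissues, had 139 in replicate 1 and 115 in replicate 2 at this site, its only one, in intron 1. Col5a2, the partner of Col5a1 in type V collagen, had 125 in replicate 1 and 145 in replicate 2. The same word stood at sites of Col4a4 and Col4a6, and its share was 16.1% (interval 7.09 to 32.6), against 7.17% of such cores at all sites. These sequences were chosen after the words were seen, and the counts are given without a test.

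Across all members, 105 of 226 gene-body sites held the core (46.5%, interval 40.1 to 53.0), against 45.4% of the gene-body sites of all genes. Without sites near a start it was 100 of 207 (48.3%, interval 41.6 to 55.1), against 52.1%, so that the order of members and all genes turned round while both background shares stayed within the members' interval. Windows of the same length 1000 bp to either side of the member sites held it in 2 of 452 cases (0.442%). The core pointed along the gene at 50 sites and against it at 55. Of the 226 sites, 205 were in introns, 9 in coding exons, 6 in untranslated parts of exons and 6 in exons of other transcripts. Intron 1 of the transcript with the most coding bases held 36 sites, some of which lay in exons of other transcripts. From the 5′ to the 3′ end, successive 25% stretches of the genes held 30.1%, 22.6%, 22.1% and 25.2% of member sites, against 32.8%, 21.2%, 21.9% and 24.1% in all genes. Median signal at member gene-body sites was 41.1 in replicate 1 and 38.0 in replicate 2, against 35.8 in replicate 1 and 33.1 in replicate 2 at those of all genes. The SD of the log2 ratio of the replicates was 0.45 at member sites and 0.46 at all sites.

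Collagen genes consist of many short coding exons, and their coding exons held sites about as often as their share of the gene length. Coding exons made up 3.88% of the member gene bodies and held 9 of 226 sites (3.98%, interval 2.11 to 7.39). In all genes they made up 3.40% of the gene bodies and held 7.03% of the sites. The 9 sites were in Col4a1, Col6a3, Col8a2, Col12a1, Col16a1, Col28a1, Loxl1 and Col23a1, the last with 2 of them, and 3 held the core. Besides the Col4a1 start codon these were exon 33 of Col16a1 and exon 19 of Col28a1, with the following sequences.
Col16a1 (1 mismatch), chr4:130066999-130067050, plus strand: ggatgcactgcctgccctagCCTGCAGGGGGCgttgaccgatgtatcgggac
Col28a1 (1 mismatch), chr6:8086979-8087030, minus strand: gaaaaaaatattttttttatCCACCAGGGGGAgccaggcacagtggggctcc
Col16a1, a FACIT chain, had 179 in replicate 1 and 169 in replicate 2 at this exon. Col28a1, a collagen of nerve basement membranes, had 92.0 in replicate 1 and 95.7 in replicate 2. Both were higher, in each replicate, than the 6 exon sites without the core. Col6a3, the longest type VI chain, gave 40.2 in replicate 1 and 33.3 in replicate 2. Col8a2 gave 20.8 and 43.6, Col12a1, a FACIT chain, 41.1 and 34.3, and Loxl1, a cross-linking enzyme of elastic fibres, 36.1 and 41.1 in replicates 1 and 2. The 2 exon sites of Col23a1 gave 72.6 and 9.91 in replicate 1 and 72.8 and 7.87 in replicate 2.

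The 3 head-to-head type IV pairs differed in CTCF binding at their shared starts. Of 1279 head-to-head pairs of protein-coding genes with starts within 2000 bp of each other, 57.1% had a site between the starts or within 1000 bp of them. Col4a1 and Col4a2, the ubiquitous basement membrane chains, overlap by 22 bp at their 5′ ends and had 1 site there, 266 bp inside Col4a1 and 245 bp upstream of Col4a2. Col4a4 and Col4a3, chains of kidney and lung basement membranes, lie 71 bp apart and had none. Col4a6 and Col4a5 on the X chromosome lie 1308 bp apart and had none. The count of 1 site over the pairs was 2 without replicate 2, the added one at Col4a4 and Col4a3, and 0 among the highest 50% of sites by signal. The best match of the core at the highest pooled peak of the intervals without a site is shown for comparison with the shared Col4a1 and Col4a2 sequence above.
Col4a4 and Col4a3 (3 mismatches), chr1:82586757-82586786, plus strand: tgctggctgCGAGTTGAAGGCcggcagccg
Col4a6 and Col4a5 (2 mismatches), chrX:141475448-141475477, plus strand: ttgcaagtcCCAACAGAAGGCaaagtgctc
Neither of these peaks was in the authors' reproducible list. The sequences lie inside Col4a4 and inside Col4a5, as the interval searched reached 1000 bp beyond the starts. In the interval of Col4a4 and Col4a3 the highest peak was 12.5 in replicate 1, and replicate 2 had none. In the interval of Col4a6 and Col4a5 it was 6.22 in replicate 1 and 6.35 in replicate 2. GC content around the midpoint was 70.6% at Col4a1 and Col4a2, 60.9% at Col4a4 and Col4a3 and 35.7% at Col4a6 and Col4a5. It followed the order of the peaks in replicate 1 but not in replicate 2, and its part in them was not tested.

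The gene bodies of the pairs differed too. Col4a1 held 7 sites and Col4a2 17, the first of which lay 42433 bp from the midpoint of the starts. Col4a4 held 5 and Col4a3 2, the nearest 10510 bp from the midpoint. Col4a6 held 5 in 309 kb and Col4a5 1, the nearest 54037 bp from the midpoint. The strongest sites lay deep in the genes: 217 in replicate 1 and 206 in replicate 2 in Col4a2, 212 and 203 in Col4a1, 196 and 200 in Col4a3, and 158 and 141 in Col4a4. In Col4a6 the highest gave 108 in replicate 1 and 109 in replicate 2, and the site of Col4a5 gave 61.2 in replicate 1 and 42.7 in replicate 2.

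**Figure D4:**
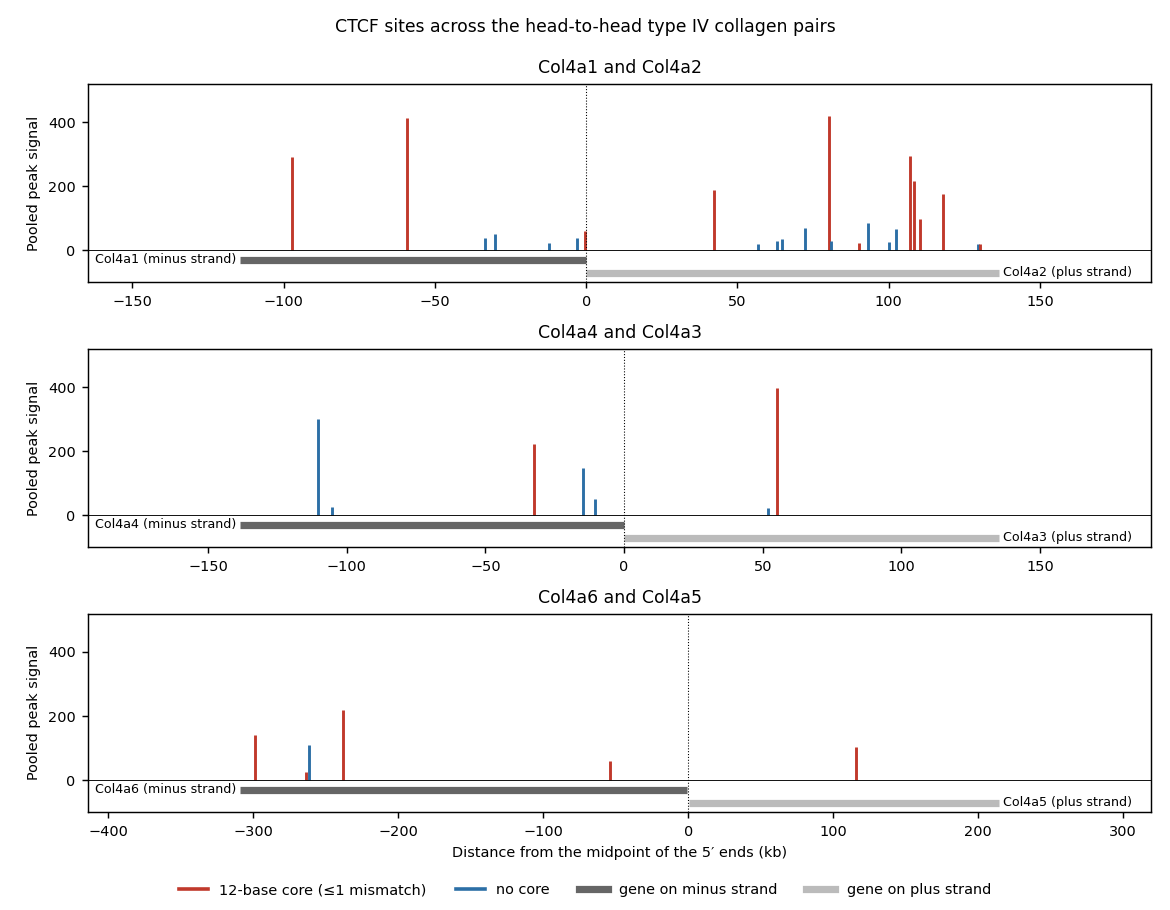
CTCF sites across the type IV pairs, by distance in kb from the midpoint of the 5′ ends (dotted line), with bar height the pooled signal, red for sites with the core and blue for sites without, and grey bars for the gene bodies. In the authors' reproducible list Col4a1 and Col4a2 alone have a site at the midpoint (Col4a4 and Col4a3 gain one without replicate 2), and the sites of Col4a2 begin 42433 bp away from it.

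Other collagen genes are neighbours without being head to head. Between Col3a1 and Col5a2, which end towards each other 24614 bp apart, there was no site, and likewise between Col9a1 and Col19a1, 9205 bp apart. In the type VI cluster of chromosome 9, 1 site lay between Col6a6 and Col6a5 (50.9 in replicate 1 and 37.5 in replicate 2) and 1 between Col6a5 and Col6a4 (117 in replicate 1 and 127 in replicate 2). Between Col6a2 and Col6a1, 85161 bp apart, there were 5 sites, none above 29.8 in replicate 1. Outside the genes, the nearest core-bearing sites on either side pointed towards each other at 15 of 51 members (29.4%, interval 18.7 to 43.0), against 28.4% of all genes. They pointed away from each other at 11 (21.6%), against 24.97%, and the same way at 25 (49.0%), against 46.7%. Col11a1 lacked such a site within 1 Mb on 1 side.

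Genes that process, cross-link and bind collagen were set beside the members. Of 64 such genes, 39 had a promoter site (60.9%, interval 48.7 to 71.9), and 51 had a gene-body site (79.7%), against 39.8% and 56.5% of all genes. Among those that fold and modify chains it was 11 of 17, led by P4ha1, a subunit of prolyl 4-hydroxylase, with 165 in replicate 1 and 169 in replicate 2, and P3h4, with 162 in both. Among those of secretion and processing it was 8 of 11, led by Bmp1, which removes the C-propeptide, with 136 in replicate 1 and 133 in replicate 2, and Creb3l1, a transcription factor of collagen-secreting cells, with 110 in replicate 1 and 118 in replicate 2. For microfibril and elastic fibre assembly it was 6 of 12, led by the latent TGF-beta binding proteins Ltbp2, with 224 in replicate 1 and 238 in replicate 2, and Ltbp4, with 154 and 158. For receptors and fibril partners it was 8 of 12, led by the integrin chains Itga2, with 102 in replicate 1 and 89.9 in replicate 2, and Itgb1, with 94.8 and 115. For turnover it was 5 of 9, led by the metalloproteinase inhibitors Timp3, with 178 in replicate 1 and 149 in replicate 2, and Timp2, with 131 and 119. Of the cross-linking enzymes Loxl2, Loxl3 and Loxl4, Loxl3 alone had one, with 11.3 in replicate 1 and no peak in replicate 2. No test was made between these lists and the members.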

How the data were processed

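CTCF ChIP-seq peak lists of mouse lung (mm10, per the labels) were used, with 1 list of 300000 peaks per replicate and a pooled list. The optimal and conservative lists were those that the authors thresholded on reproducibility (IDR). Sites were taken from the optimal list. The deposited signal per peak was taken as an enrichment value, which the sources used here do not state. The deposited −log10 q value and summit offset come with each peak. Aligner, peak caller and thresholds were not given in the sources used here; read depth is unknown. Of 64742 sites, the 64732 on chromosomes 1 to 19 and X were used; replicate signal was the highest peak within 100 bp of the summit. Genes came from GENCODE M21, sequence from GRCm38.p6. Cores were counted within 50 bp of the summit, at most 1 mismatch. Analysis used Python 3 (pandas, pysam); functions were tested on simulated data. With 1 group there was no test between conditions. Shares carry 95% Wilson intervals, which cover counting error only. Members and lists were chosen with earlier results of these data known. Named were the 12 members with the highest promoter sites by mean replicate rank, the 8 with most gene-body sites (9 with ties), pairs, coding-exon sites, members with no site and 6 set genes; the 4 promoter members beyond the 12, and Col4a5, Col6a5, Col8a2 and Emilin1, were added after their values were seen. Alternatives were the other lists, signal, distances, core settings and single replicates.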

Additional observations from a re-analysis of the deposited data

Results flagged for a closer look

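Peaks inside the members that stand in the authors' pooled list but did not pass the reproducibility threshold entered no count of gene-body sites. More than 2000 bp from any listed site, 40 of 588 such peaks held the core (6.80%, interval 5.04 to 9.13), against 5 of 1176 windows of the same length 1000 bp to either side of them (0.425%, interval 0.182 to 0.991). The share was above that of the windows and below the 46.5% of listed gene-body sites.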

How the results depend on the processing

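With the highest 50% of sites by signal, 6 members had a promoter site, gene-body sites numbered 115, sites at the head-to-head pairs 0 and the core share 62.1%. A promoter distance of 500 bp gave 10 members and 5000 bp gave 38. The core share was 13.6% with 0 mismatches and 79.8% with at most 2. Convergent flanking cores were found at 8 of 44 members with 0 mismatches and at 20 of 51 with the highest 50% of sites, against 15 of 51 in the main setting. Extending the pair interval by 5000 bp gave 2 sites. The SD of the log2 replicate ratio was 0.30 on the conservative list and 0.21 at the highest 50%. The cause was not tested. Leaving out a replicate gave 1 to 2 pair sites, the second one, without replicate 2, at Col4a4 and Col4a3, and 17 to 20 members with a promoter site: 14 of the 16 calls remained without replicate 1 and 15 without replicate 2. Without replicate 1, Col24a1 and Fbn2 were lost and Col12a1, Col19a1 and Eln gained; without replicate 2, Col24a1 was lost and Col11a2, Col12a1, Col4a3, Col4a4 and Col8a2 gained. The members with a gene-body site numbered 44 to 48 under every list and replicate setting run. No paired analysis was possible because there is 1 group. Read depth is unknown, so an unlisted site may be below detection.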
